A study of Mus musculus with 24 samples.

Results

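The regions described here are the 897 H3K4me3 regions of tet-Myc/YAP liver that shared no base with an H3K4me3 region of tet-Myc, tet-YAP or wild-type liver. They made up 4.6% of the 19486 regions in the tet-Myc/YAP list (4.60%, Wilson 95% interval 4.32 to 4.91). The members were chosen by the presence of an H3K4me3 region in 1 list and its absence from 3 others, so these values describe them and carry no test. The remaining 18589 tet-Myc/YAP regions overlapped at least 1 of the other 3 lists and are called the other regions.

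The samples were livers of mice treated with doxycycline for 2 days, all of which carried R26-rtTA, the tetracycline-dependent activator placed in the Rosa26 locus. The 4 genotypes were tet-Myc/YAP, with a Myc and a YAP transgene under tetracycline control, tet-Myc, with the Myc transgene alone, tet-YAP, with the YAP transgene alone, and wild-type, with neither. According to the study's methods the YAP transgene encodes the S127A form, an activated mutant. R26-rtTA is not restricted to hepatocytes, and the labels do not give the liver cells in which each transgene was active. No cell type marker could be checked in lists that carry no gene names. Chromatin immunoprecipitation followed by sequencing (ChIP-seq) was done for H3K4me3, H3K27ac, Myc, TEAD and RNA polymerase II in the 4 genotypes, for YAP in tet-Myc/YAP and tet-YAP, and for H3K4me1 in wild-type. There was 1 library for each genotype and antibody, and the sources used here do not give whether it pooled several animals. Differences between genotypes therefore have no replicate check and no p-value was computed. Intervals on shares cover the counting of regions only, do not include the spread between animals or libraries, and treat neighbouring regions as independent, which they are not.

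H3K4me3 is the trimethylated form of lysine 4 of histone H3 and marks promoters, where it lies over the first nucleosomes around active or poised start sites. H3K27ac marks active promoters and enhancers, whereas H3K4me1 marks enhancers, active or primed, and the flanks of promoters. Myc binds E-box sequences as a dimer with Max and is found mostly at promoters that are already open. YAP, the coactivator restrained by the Hippo pathway, has no DNA-binding domain and is brought to chromatin by the TEAD transcription factors.

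The narrow lists of Myc, TEAD, YAP and RNA polymerase II had 16.9 to 50.6 M ChIP tags behind them; for the histone lists the sources used here give no depth. The Myc libraries had 16.9 M tags in tet-Myc/YAP, 20.7 M in tet-Myc, 26.1 M in tet-YAP and 29.7 M in wild-type, the TEAD libraries 31.6 to 33.1 M. The RNA polymerase II libraries differed most, with 45.8 M tags in tet-Myc/YAP, 50.6 M in tet-Myc, 37.7 M in tet-YAP and 20.9 M in wild-type. The peak caller's estimate of the fragment length was 287 to 364 bp in most narrow lists, but 51 bp, equal to the tag, for wild-type Myc, and 56 bp for tet-YAP YAP. These 2 lists were also short, with 4775 and 1328 peaks.

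The members were short regions of low score. Their width had a median of 1127 bp, with quartiles of 848 and 1741 bp and a range of 384 to 14497 bp, against a median of 2588 bp in the other regions. The score that the authors deposited for each region, which has no stated unit and was used only to rank regions within the list, had a median of 2038 in the members and of 34836 in the other regions. The median member lay at percentile 7.20 of the scores in the list, and 578 of the 897 members (64.4%) lay in the lowest 10% of scores, where they made up 29.7% of the 1948 regions. The member of highest score lay at percentile 47.4, so none reached the middle of the list. A single inner block, the stretch of stronger signal within a region, was drawn in 97.2% of the members, 92.8% of the low-score other regions described next and 84.0% of all other regions.

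**Figure D1:**
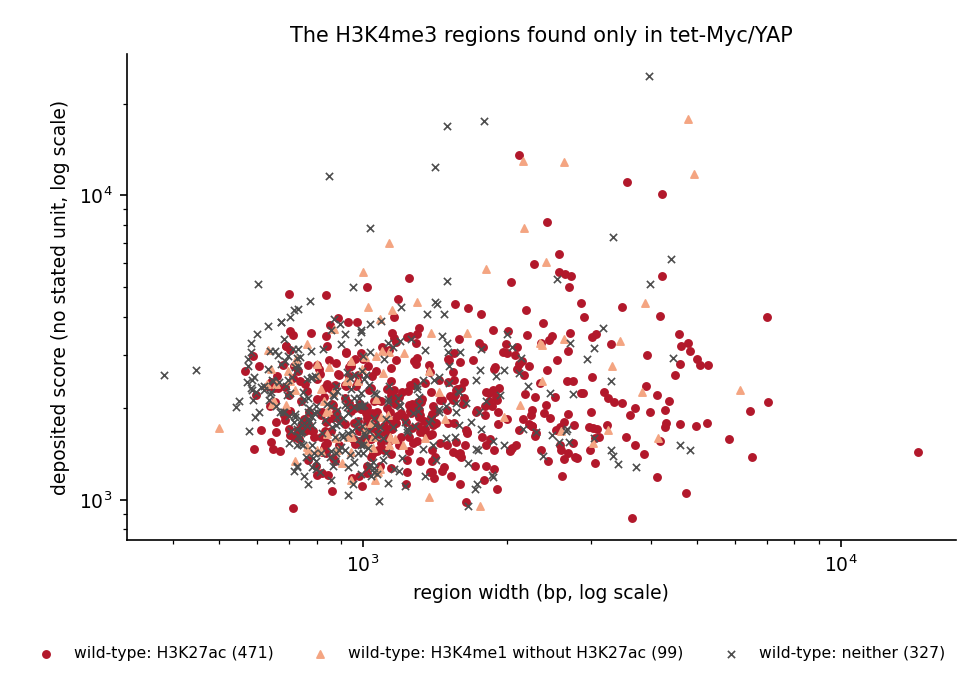
Width (bp, log scale) and deposited score (no stated unit, log scale) of the 897 H3K4me3 regions found only in tet-Myc/YAP, with symbols for the state of the same place in wild-type liver (471 with H3K27ac, 99 with H3K4me1 without H3K27ac, 327 with neither). The medians are 1127 bp and a score of 2038, and the widest member, at 14497 bp, has a score of 1435.

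To compare the members with other regions of low score, they were also set beside the 1820 other regions whose score was no higher than 2694, the third quartile of the members. Members above that quartile, which reached a score of 24649, had no counterpart of like score in this group. These low-score other regions had a median score of 2018 and a median width of 1371.5 bp, somewhat wider than the members. They were the nearest like group in the same list. Shares of the members are set beside those of both groups, because several comparisons turn round between the 2.

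The distance from the members to the nearest H3K4me3 region of the other 3 genotypes was measured in the lists that the rule used, so it only describes them. The gap had a median of 18839 bp with quartiles of 7197 and 42795 bp. The nearest other region of the tet-Myc/YAP list itself lay at a median of 21171 bp from the members. The 3 members closest to a region of another genotype lay 151, 1182 and 1405 bp from it, and 1 member lay within 1 kb. On the other side of the rule, the 3 regions with the smallest overlap shared 458, 464 and 502 bp with another genotype's list. No region overlapped by fewer than 458 bp in that count. The rule used these values, so they do not test it.

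The places where H3K4me3 was called only in tet-Myc/YAP often had other histone marks of regulatory DNA called in wild-type liver, though less often than the list as a whole. A wild-type H3K4me1 region lay at 537 of the 897 members (59.9%, 56.6 to 63.0), against 54.8% (52.5 to 57.1) of the low-score other regions, 71.5% of the other regions and 70.9% of all tet-Myc/YAP H3K4me3 regions. A wild-type H3K27ac region lay at 471 members (52.5%, 49.2 to 55.8), against 56.4% (54.1 to 58.6) of the low-score other regions, 76.6% of the other regions and 75.4% of all. The difference for H3K4me1 was 5.03 percentage points (Newcombe 95% interval 1.07 to 8.94) over the low-score other regions but -11.6 points (-14.9 to -8.38) against all other regions. For wild-type H3K27ac it was -3.87 points (-7.84 to 0.11) and -24.1 points (-27.4 to -20.7).

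Divided by these wild-type marks, 471 members carried H3K27ac, 99 (11.04%, 9.15 to 13.3) carried H3K4me1 without H3K27ac, and 327 (36.5%, 33.4 to 39.7) carried neither. The primed class, H3K4me1 without H3K27ac, took a larger share of the members than of the low-score other regions (84, 4.62%, 3.74 to 5.68) or of the other regions (657, 3.53%, 3.28 to 3.81). Of the 471 members with wild-type H3K27ac, 438 also had wild-type H3K4me1. These states did not use wild-type H3K4me3, which every member lacked by the rule. In contrast, 15246 of the other regions overlapped an H3K4me3 region of each other genotype, wild-type included. A region of the same state can thus be a different kind of place in the members and in the other sets.

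Wild-type TEAD was found at 433 members (48.3%, 45.0 to 51.5), against 44.9% (42.6 to 47.2) of the low-score other regions, 65.9% of the other regions and 65.1% of all regions. The difference was 3.38 points (-0.60 to 7.36) over the low-score other regions and -17.6 points (-20.9 to -14.3) against all other regions. RNA polymerase II was the wild-type signal in which the members stood furthest from the rest. It was called in wild-type at 137 members (15.3%, 13.1 to 17.8), against 28.5% (26.5 to 30.6) of the low-score other regions, 64.4% of the other regions and 62.1% of all. The difference was -13.2 points (-16.3 to -10.0) and -49.1 points (-51.5 to -46.5). The rule required an absence of wild-type H3K4me3 from the members but not from the other regions. The part of that choice in the wild-type differences was not tested. The wild-type Myc list, the one with a fragment length equal to the tag, had a peak at 15 members (1.67%, 1.02 to 2.74), against 3.35% (2.62 to 4.28) of the low-score other regions, 13.2% of the other regions and 12.7% of all regions.

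Myc, the transcription factor switched on in tet-Myc/YAP and tet-Myc, lay at 492 members in tet-Myc/YAP and at 446 in tet-Myc. The tet-Myc/YAP share was 54.8% (51.6 to 58.1), against 43.2% (41.0 to 45.5) of the low-score other regions, 74.0% of the other regions and 73.1% of all regions. The difference was 11.6 points (7.62 to 15.6) over the low-score other regions and -19.1 points (-22.5 to -15.9) against all other regions. The members thus had Myc more often than the low-score other regions and less often than the list as a whole. The tet-Myc share was 49.7% (46.5 to 53.0), against 44.6% (42.4 to 46.9) of the low-score other regions, 72.0% of the other regions and 70.9% of all, a difference of 5.11 points (1.12 to 9.08) and of -22.2 points (-25.6 to -18.9). In tet-YAP, where Myc is the endogenous protein, the count was 137 members (15.3%, 13.1 to 17.8), against 15.9% (14.3 to 17.7) of the low-score other regions and 43.5% of the other regions.

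Most Myc peaks at the members of tet-Myc/YAP liver had a counterpart in tet-Myc liver. Of the 492 members with a tet-Myc/YAP Myc peak, 397 (80.7%, 77.0 to 83.9) also had one in tet-Myc, against 92.9% (90.9 to 94.5) of the low-score other regions and 93.9% (93.5 to 94.3) of the other regions with tet-Myc/YAP Myc. The most frequent pattern, after the 356 members with Myc in no genotype, was Myc in tet-Myc/YAP and tet-Myc alone (267 members, 29.8%), which held 24.2% of the low-score other regions and 25.5% of the other regions. A further 116 members had Myc in the 3 transgenic genotypes, 86 (9.59%) in tet-Myc/YAP alone and 48 in tet-Myc alone. Myc in tet-Myc/YAP alone was the pattern of 2.86% of the low-score other regions and 4.18% of the other regions. The tet-Myc/YAP Myc peaks at members were of middling strength in their own list: their fold enrichment had a median of 9.90 with quartiles of 7.35 and 14.5, at percentile 47.3 of the list, against percentile 46.6 at the low-score other regions and 59.1 at the other regions.

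TEAD, which recruits YAP to DNA, was the factor found at the most members. A tet-Myc/YAP TEAD peak lay at 600 members (66.9%, 63.7 to 69.9), against 54.2% (51.9 to 56.5) of the low-score other regions, 76.3% of the other regions and 75.8% of all. The difference was 12.7 points (8.78 to 16.4) over the low-score other regions and -9.37 points (-12.6 to -6.31) against all other regions. Across genotypes TEAD was found at 66.9% of the members in tet-Myc/YAP, 58.2% (54.9 to 61.4) in tet-Myc liver, 50.5% (47.2 to 53.8) in tet-YAP and 48.3% in wild-type, from libraries of nearly equal depth. The other regions had TEAD at 76.3%, 69.2%, 61.6% and 65.9% in the same order, and the low-score other regions at 54.2%, 47.6%, 41.5% and 44.9%. The tet-Myc/YAP and tet-Myc TEAD lists were the longer ones, with 52392 and 44220 peaks, while tet-YAP had 32486 and wild-type 33417.

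TEAD was called in all 4 genotypes at 366 members (40.8%), against 34.8% of the low-score other regions and 54.4% of the other regions. It was called in none at 279 members (31.1%), against 41.1% and 19.98%. The next most frequent pattern was TEAD in tet-Myc/YAP and tet-Myc alone, at 60 members, followed by the 3 transgenic genotypes, at 52, and tet-Myc/YAP alone, at 47. TEAD present in tet-Myc/YAP and absent in wild-type was found at 177 members (19.7%, 17.3 to 22.5), against 11.9% (10.5 to 13.5) of the low-score other regions and 13% of all regions. The members were chosen by an absence of H3K4me3 from wild-type, and the part of that choice in this difference was not tested. Of the 464 members without wild-type TEAD, 38.1% (33.8 to 42.6) had it in tet-Myc/YAP, 25% (21.3 to 29.1) in tet-Myc liver and 15.9% (12.9 to 19.6) in tet-YAP, against 21.6% (19.2 to 24.3), 14.4% (12.3 to 16.7) and 7.08% (5.65 to 8.84) of the 1003 low-score other regions without it. Among all 6342 other regions without it the shares were 37.0% (35.9 to 38.2), 25.5% and 13.7% (12.9 to 14.6), close to those of the members. The reverse, wild-type TEAD with none in tet-Myc/YAP, was seen at 10 members.

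The TEAD peaks at the members were also strong. The rule did not use peak strength, but it chose places with H3K4me3 in tet-Myc/YAP and in no other genotype. The part of that choice in the strength of the peaks was not tested. In tet-Myc/YAP the 760 TEAD peaks at members had a median fold enrichment of 11.2, with quartiles of 7.12 and 19.4, at percentile 71.2 of the TEAD list. The TEAD peaks of the low-score other regions lay at percentile 58.5 and those of the other regions at 55.3, with a median fold enrichment of 8.38. In tet-Myc the percentiles were 65.3 at members, 56.5 at low-score other regions and 52.5 at the other regions, in tet-YAP 67.5, 52.0 and 50.5, and in wild-type 59.5, 51.3 and 57.0. The members were thus the highest of the 3 sets in each of the 4 TEAD lists, with the smallest gap to the other regions in wild-type.

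At the 366 members with TEAD in every genotype, the strongest TEAD peak had a median percentile of 87.8 in tet-Myc/YAP, 83.5 in tet-Myc, 78.0 in tet-YAP, against 72.0 in wild-type. The tet-Myc/YAP percentile exceeded the wild-type one at 292 of these 366 members (79.8%), against 406 of 634 low-score other regions (64.0%) and 5657 of 10104 other regions (56.0%). This comparison sets the genotype in which the members were called against one from which they were absent, and the part of that choice was not tested. Percentiles are positions in lists of different length, so the order of the genotypes is that of rank within each list and not of fold enrichment. RNA polymerase II was called in all 4 genotypes at 102 members, and its strongest peak ranked at percentile 76.1 in tet-Myc/YAP and 56.5 in wild-type, against 75.1 and 59.4 at the low-score other regions and 90.5 and 83.3 at the other regions.

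**Figure D2:**
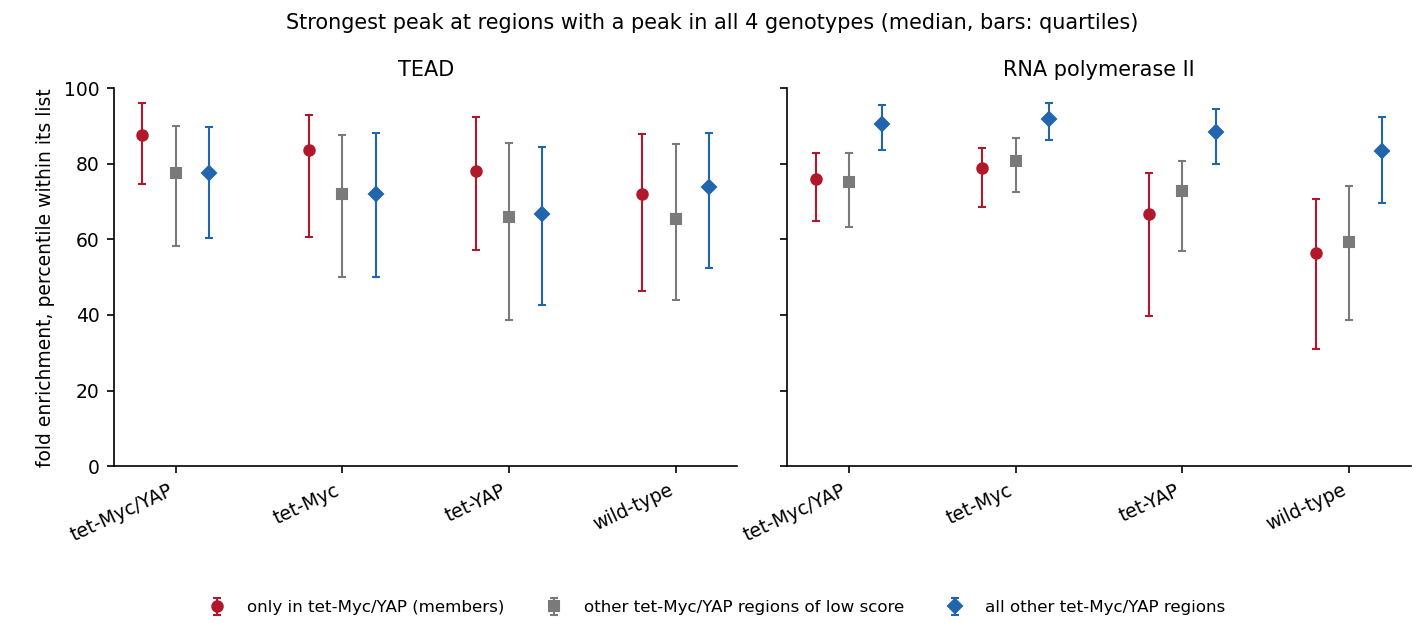
Percentile, within its own list, of the fold enrichment of the strongest TEAD (left) or RNA polymerase II (right) peak at regions with a peak in all 4 genotypes; points are medians and bars the quartiles over regions, for members, low-score other regions and all other regions. TEAD at the 366 members has a median percentile of 87.8 in tet-Myc/YAP, 83.5 in tet-Myc, 78.0 in tet-YAP, against 72.0 in wild-type.

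YAP was found at nearly equal shares of the members and of the low-score other regions. A tet-Myc/YAP YAP peak lay at 180 members (20.1%, 17.6 to 22.8), against 19.9% (18.1 to 21.8) of the low-score other regions, 40.7% of the other regions and 39.7% of all. The difference was 0.18 points (-2.95 to 3.44) over the low-score other regions and -20.6 points (-23.2 to -17.8) against all other regions. The YAP peaks at members were of middling strength, with a median fold enrichment of 6.62 at percentile 47.7 of the list. The control of the tet-Myc/YAP YAP library had 167.0 M tags, where the control of each other narrow list had about as many tags as its ChIP library, and the part of this in the YAP shares was not tested.

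In tet-YAP the YAP list was short, and 34 members had a peak (3.79%, 2.73 to 5.25), against 1.76% (1.25 to 2.47) of the low-score other regions, 2.67% of the other regions and 2.73% of all. The difference was 2.03 points (0.75 to 3.58) over the low-score other regions and 1.12 points (0.02 to 2.59) over all other regions. A tet-Myc/YAP YAP peak was found again at 25 of these 34 members (73.5%, 56.9 to 85.4), against 81.2% of the low-score other regions and 83.5% of the other regions with YAP in tet-YAP. Tet-Myc/YAP TEAD lay at all 34, against 93.8% and 98.8%, and Myc at 31 (91.2%), against 78.1% and 89.3%. Wild-type H3K27ac lay at 24 of the 34 (70.6%, 53.8 to 83.2), against 84.4% (68.2 to 93.1) of the 32 low-score other regions and 93.4% (90.8 to 95.2) of the 497 other regions.

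The factors overlapped in a nested order, at the members as in the list as a whole. TEAD was present at all 180 members with YAP in tet-Myc/YAP, where 0 of 180 without TEAD allows a share of up to 1.67%, and at 458 of the 492 members with Myc (93.1%, 90.5 to 95.01). Myc was present at 172 of the 180 members with YAP (95.6%, 91.5 to 97.7). In the low-score other regions and the other regions, TEAD lay at 98.9% and 98% of those with YAP and at 90.8% and 91.4% of those with Myc, and Myc at 94.5% and 98.1% of those with YAP. YAP lay at 172 of the 458 members with both Myc and TEAD (37.6%, 33.2 to 42.1), at 8 of the 142 with TEAD without Myc (5.63%, 2.88 to 10.7) and at 0 of the 34 with Myc without TEAD, which allows up to 8.82%. At regions with Myc and TEAD, YAP was less frequent in the members than in the low-score other regions (339 of 715, 47.4%, 43.8 to 51.1) or the other regions (57.9%, 57.1 to 58.8).

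The most frequent combination at the members was Myc and TEAD without YAP, at 286 (31.9%, 28.9 to 35.0), against 20.7% (18.9 to 22.6) of the low-score other regions and 28.4% (27.8 to 29.1) of the other regions. Myc, TEAD and YAP together were found at 172 members (19.2%, 16.7 to 21.9), against 18.6% of the low-score other regions and 39.2% of the other regions. TEAD alone was found at 134 members (14.9%), against 13.9% of the low-score other regions and 7.98% of the other regions, and Myc alone at 34 (3.79%), against 3.79% and 5.67%. None of the 3 factors was called at 263 members (29.3%, 26.4 to 32.4), against 41.8% (39.5 to 44.0) of the low-score other regions and 17.3% of the other regions. At 176 members (19.6%, 17.2 to 22.4), none of the 19 lists other than H3K4me3 had a peak or region in any genotype, against 23.0% (21.1 to 25.01) of the low-score other regions and 7.47% of the other regions.

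Where a tet-Myc/YAP peak was present, its summit usually lay inside the member, though less often than in the wider other regions. The summit of the strongest TEAD peak was inside at 550 of 600 members (91.7%, 89.2 to 93.6), against 94.2% (92.6 to 95.5) of the low-score other regions and 97.9% of the other regions. That of the strongest Myc peak was inside at 468 of 492 members (95.1%, 92.8 to 96.7), against 96.1% and 99.2%.

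RNA polymerase II was found at 395 members in tet-Myc/YAP (44.0%, 40.8 to 47.3), at 401 in tet-Myc (44.7%, 41.5 to 48.0), at 232 in tet-YAP (25.9%, 23.1 to 28.8), against 137 in wild-type. In tet-Myc/YAP this compared with 40.4% (38.2 to 42.7) of the low-score other regions, 75.5% of the other regions and 74.1% of all, a difference of 3.60 points (-0.34 to 7.55) and of -31.5 points (-34.8 to -28.2). In tet-Myc the order was the other way round, with 44.7% of the members against 49.8% (47.5 to 52.1) of the low-score other regions and 78.8% of the other regions, a difference of -5.08 points (-9.03 to -1.08) and of -34.1 points. In tet-YAP the 25.9% of the members stood against 37.1% of the low-score other regions and 71.8% of the other regions, a difference of -11.2 points (-14.8 to -7.54) and of -45.9 points. Polymerase was called in no genotype at 413 members (46.0%), against 45.3% of the low-score other regions and 18.3% of the other regions. It was called in tet-Myc/YAP and tet-Myc alone at 108 (12.04%), against 6.15% and 4.51%, and in all 4 genotypes at 102 (11.4%), against 22.1% and 61.7%.

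Polymerase present in tet-Myc/YAP and absent in wild-type was found at 271 members (30.2%, 27.3 to 33.3), against 15.8% (14.2 to 17.6) of the low-score other regions and 13.3% of all. Here too the members were chosen by an absence of H3K4me3 from wild-type, and the part of that choice was not tested. Of the 760 members without wild-type polymerase, 35.7% (32.3 to 39.1) had it in tet-Myc/YAP, 35.4% (32.1 to 38.9) in tet-Myc liver and 16.2% (13.7 to 18.97) in tet-YAP, against 22.1% (20.0 to 24.5), 31.6% (29.1 to 34.2) and 17.8% (15.9 to 20.0) of the 1301 low-score other regions. Among all 6616 other regions without it the shares were 35.2% (34.0 to 36.4), 42.1% (40.9 to 43.3) and 25.5% (24.4 to 26.6), so the members were level with them in tet-Myc/YAP and below them in tet-Myc and tet-YAP. The order of the genotypes in these shares was close to the order of their polymerase libraries by depth, whose part was not tested. Within tet-Myc/YAP, polymerase lay at 344 of the 492 members with Myc (69.9%, 65.7 to 73.8) and at 51 of the 405 without (12.6%, 9.71 to 16.2). The same split was 73.4% and 15.3% in the low-score other regions and 91.7% and 29.5% in the other regions.

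H3K27ac was found at 618 members in tet-Myc/YAP (68.9%, 65.8 to 71.8), at 580 in tet-Myc (64.7%, 61.5 to 67.7), at 530 in tet-YAP (59.1%, 55.8 to 62.3), against 471 in wild-type. The tet-Myc/YAP share compared with 59.2% (56.9 to 61.4) of the low-score other regions, 83.7% of the other regions and 83% of all, a difference of 9.72 points (5.89 to 13.4) over the low-score other regions and of -14.8 points (-17.9 to -11.8) against all other regions. In tet-Myc the difference was 2.68 points (-1.19 to 6.48) over the low-score other regions and in tet-YAP 0.02 points (-3.93 to 3.92). H3K27ac was present in all 4 genotypes at 438 members (48.8%), against 51.4% of the low-score other regions and 74.2% of the other regions, and in none at 243 (27.1%), against 34.2% and 13.3%.

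H3K27ac present in tet-Myc/YAP and absent in wild-type was found at 160 members (17.8%, 15.5 to 20.5), against 6.10% (5.09 to 7.29) of the low-score other regions and 8.69% of all. Of the 426 members without wild-type H3K27ac, 37.6% (33.1 to 42.3) had it in tet-Myc/YAP, 27% (23.0 to 31.4) in tet-Myc liver and 18.3% (14.9 to 22.3) in tet-YAP, against 14.0% (11.7 to 16.6), 16.4% (14.0 to 19.1) and 11.3% (9.31 to 13.7) of the 794 low-score other regions without it. Among all 4358 other regions without it the shares were 35.2% (33.8 to 36.6), 31.7% (30.3 to 33.1) and 27.03% (25.7 to 28.4), so the members were close to them in tet-Myc/YAP and lower in tet-YAP. The members were selected on an absence of H3K4me3 from wild-type, tet-Myc and tet-YAP, and the low-score other regions were not. In tet-Myc/YAP H3K27ac lay at 545 of the 600 members with TEAD (90.8%, 88.3 to 92.9) and at 73 of the 297 without (24.6%, 20.0 to 29.8). The same split was 87.2% and 25.9% in the low-score other regions and 94.7% and 48.3% in the other regions.

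**Figure D3:**
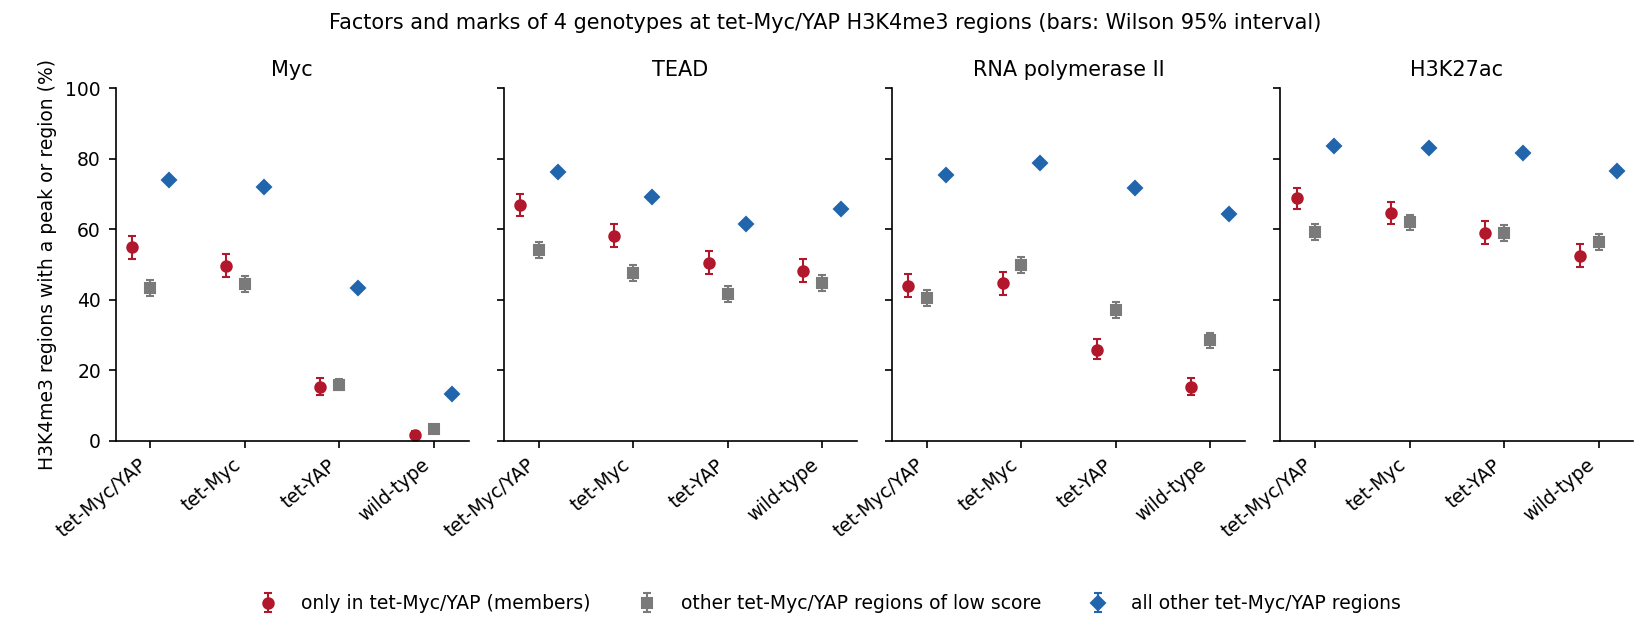
Share (%) of tet-Myc/YAP H3K4me3 regions that overlapped a Myc, TEAD or RNA polymerase II peak or an H3K27ac region of each genotype, for members (897), low-score other regions (1820) and all other regions (18589), with Wilson 95% intervals. For tet-Myc/YAP lists the members lie above the low-score other regions for Myc (54.8%), TEAD (66.9%) and H3K27ac (68.9%), and below all other regions in every panel.

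The 3 wild-type states of the members differed in what was found there in tet-Myc/YAP. At the 471 members with wild-type H3K27ac, TEAD was present at 90.4% (87.4 to 92.8), Myc at 79.8% (76.0 to 83.2), RNA polymerase II at 68.6% (64.3 to 72.6) and YAP at 33.3% (29.2 to 37.7). At the 99 members with H3K4me1 without H3K27ac, TEAD was present at 85.9% (77.7 to 91.4), Myc at 59.6% (49.7 to 68.7), polymerase at 41.4% (32.2 to 51.3) and YAP at 18.2% (11.8 to 26.9). At the 327 members with neither mark, TEAD was present at 27.2% (22.7 to 32.3), Myc at 17.4% (13.7 to 21.9), polymerase at 9.48% (6.76 to 13.1) and YAP at 5 members (1.53%, 0.65 to 3.53). The other regions showed the same order of states, with TEAD at 88.9%, 64.4% and 29.8%, Myc at 87.9%, 58.6% and 23.4%, polymerase at 90.2%, 51.3% and 23.4% and YAP at 51.9%, 14.5% and 2.27%.

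In the primed members H3K27ac was called at different shares in the 4 genotypes. Of the 99, none of which had it in wild-type by definition, 83 had H3K27ac in tet-Myc/YAP (83.8%, 75.4 to 89.8), 68 in tet-Myc (68.7%, 59.0 to 77.0) and 46 in tet-YAP (46.5%, 37.0 to 56.2). Of the 84 low-score other regions in the same state, 36 had it in tet-Myc/YAP (42.9%, 32.8 to 53.5), and of the 657 other regions 417 (63.5%, 59.7 to 67.1). In tet-Myc the shares were 46.4% (36.15 to 57.0) of the primed low-score other regions and 61.2% (57.4 to 64.8) of the primed other regions. In tet-YAP the other regions were level with the members, at 46.6% (42.8 to 50.4), and the low-score other regions lower, at 19.05% (12.1 to 28.7). The members were thus above the low-score other regions in all the transgenic genotypes. TEAD lay at 85.9% of the primed members, against 50% (39.5 to 60.5) of the primed low-score other regions and 64.4% (60.6 to 68.0) of the primed other regions. Myc lay at 59.6%, against 34.5% (25.2 to 45.2) and 58.6% (54.8 to 62.3), so that only the low-score comparison set the members apart. The primed sets also differed in score, with a median of 2292 in the members and 1933.5 in the low-score other regions. They differed by the rule as well, since the members lacked wild-type H3K4me3 and the other sets could carry it. The part of this in the differences was not tested. At places with wild-type H3K27ac, TEAD lay at 90.4% of the members, 80.6% of the low-score other regions and 88.9% (88.4 to 89.4) of the other regions, and Myc at 79.8%, 69.1% and 87.9%, the last above the members. YAP there lay at 33.3%, 34.1% and 51.9%.

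**Figure D4:**
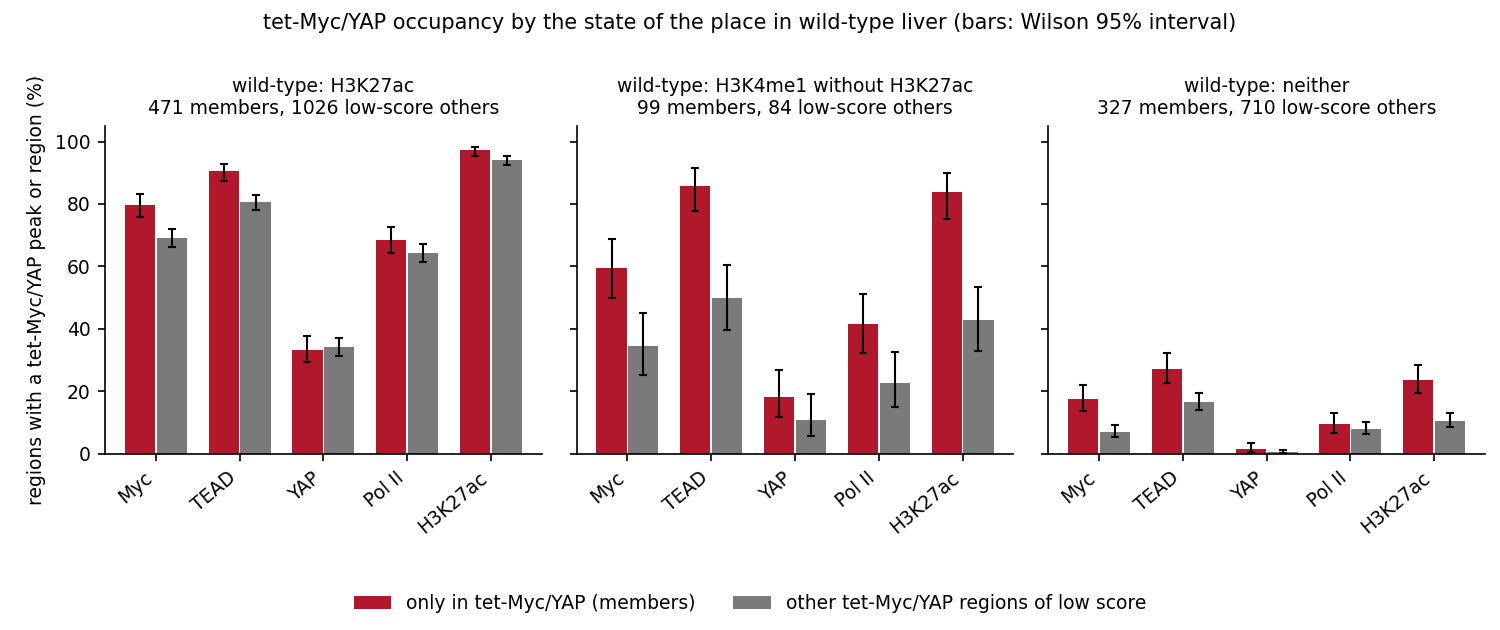
Share (%) of members and of low-score other regions with a tet-Myc/YAP Myc, TEAD, YAP or RNA polymerase II peak or H3K27ac region, by the mark that the same place carried in wild-type liver, with Wilson 95% intervals. TEAD lies at 90.4%, 85.9% and 27.2% of the members in the 3 states, and YAP at 33.3%, 18.2% and 1.53%.

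Wider regions met peaks more often, among the members as among the other regions. Myc in tet-Myc/YAP lay at 135 of the 356 members under 1 kb (37.9%, 33.0 to 43.1), 221 of the 361 of 1 to 2 kb (61.2%, 56.1 to 66.1), 103 of the 143 of 2 to 4 kb (72.0%, 64.2 to 78.7) and 33 of the 37 of 4 kb or more (89.2%, 75.3 to 95.7). TEAD lay at 53.4%, 71.7%, 81.8% and 91.9% of the same classes, and YAP at 9.55%, 22.4%, 31.5% and 54.1%. In the other regions Myc lay at 33.5%, 60.2%, 80.8% and 88.9% of these classes, TEAD at 49.0%, 64.9%, 80.2% and 89.6% and YAP at 7.07%, 22.8%, 45.8% and 60.9%. Weighting the other regions to the members' width classes gave 54.1% for Myc, 62.1% for TEAD, 21.8% for YAP, 50.3% for RNA polymerase II and 66.8% for H3K27ac, so that the members were then 0.77 points higher for Myc, 4.82 points higher for TEAD and 2.12 points higher for H3K27ac, with a difference of -1.72 points for YAP and -6.23 points for polymerase. Weighting the low-score other regions in the same way gave lower shares than without weights, 41.1% for Myc, 52.9% for TEAD, 17.2% for YAP, 36.5% for polymerase and 57.5% for H3K27ac.

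Single members were taken as the first 3 by width, by score and by the −log10 q value of the strongest tet-Myc/YAP Myc, TEAD and YAP peak. Coordinates are of the mm9 build. The widest member, chr5:93136808-93151304, spanned 14497 bp with a score of 1435 and lay 19952 bp from the nearest H3K4me3 region of another genotype. Its TEAD fold enrichment was 49.5 in tet-Myc/YAP, 30.5 in tet-Myc, 23.8 in tet-YAP, against 9.33 in wild-type, and it carried H3K27ac in the 4 genotypes. Myc was absent there in wild-type and had a fold enrichment of 17.3 in tet-Myc/YAP, 7.68 in tet-Myc and 5.44 in tet-YAP. The next in width were chr18:51284291-51291340 (7050 bp) and chr3:104399465-104406463 (6999 bp), with TEAD at 30.4 and 38.2 in tet-Myc/YAP and at 6.66 and 9.72 in wild-type. All 3 had wild-type H3K27ac.

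The 3 members of highest score had no wild-type H3K27ac. The first, chr13:49391169-49395130, had a score of 24649 and neither wild-type mark, with H3K27ac in tet-Myc/YAP and tet-YAP. TEAD there had a fold enrichment of 33.5 in tet-Myc/YAP, 14.3 in tet-Myc, 9.81 in tet-YAP, against 11.6 in wild-type, while Myc (6.64) and RNA polymerase II (8.20) were called in tet-Myc/YAP alone. The second, chr3:19161092-19165880, was primed by H3K4me1 in wild-type and had H3K27ac in the 3 transgenic genotypes, with Myc at 21.3 in tet-Myc/YAP, 11.2 in tet-Myc and 4.80 in tet-YAP. The third, chr11:118470538-118472332, had neither wild-type mark, no Myc and no polymerase in any genotype. Its TEAD fold enrichment was 29.8 in tet-Myc/YAP, 8.16 in tet-Myc and 13.2 in tet-YAP, with no wild-type peak, and H3K27ac was listed in tet-Myc/YAP alone.

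The strongest Myc peaks at members lay at chr2:134549242-134550403, chr1:4758366-4759872 and chr5:147487070-147489505. Their fold enrichment was 69.7, 64.1 and 60.4 in tet-Myc/YAP, 45.5, 24.5 and 40.6 in tet-Myc, and 16.2, 8.09 and 9.63 in tet-YAP. A wild-type Myc peak was present at the second of them, at 10. All 3 also had TEAD in the 4 genotypes, YAP in tet-Myc/YAP and H3K27ac throughout.

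The strongest TEAD peaks lay at chr9:44534143-44535429, chr1:108525584-108528784 and chr4:40783818-40786790, with a fold enrichment of 90.8, 89.4 and 83.4 in tet-Myc/YAP and of 5.26, 15.8 and 29.3 in wild-type. In tet-Myc it was 14.3, 20.9 and 79.3, and in tet-YAP 18.9, 55.6 and 41.5. The strongest YAP peaks lay at chr11:32504843-32505815, chr13:43327703-43328777 and, again, chr1:108525584-108528784, with 18.9, 15.4 and 15.7 in tet-Myc/YAP and 22.3, 13.0 and 26.0 in tet-YAP. All of these members had H3K27ac in the 4 genotypes, and the YAP-bound ones had TEAD in wild-type at 47.7, 14.7 and 15.8. The members named for Myc, TEAD and YAP were picked by their tet-Myc/YAP peaks, which favours high values in that genotype. Fold enrichment also depends on the depth of a library and its control, so values of different genotypes stand side by side without a test.

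The same rule turned to each genotype gave 332 of 18772 H3K4me3 regions only in tet-Myc (1.77%), 215 of 16014 only in tet-YAP (1.34%) and 1031 of 18852 only in wild-type (5.47%). Wild-type thus had more regions of its own than tet-Myc/YAP, both in number and as a share. A further 858 tet-Myc/YAP regions (4.40%) were shared with tet-Myc alone, against 67 (0.34%) shared with tet-YAP alone and 380 (1.95%) with wild-type alone. The tet-YAP list was the shortest. Regions also found in wild-type were uneven in the same way, 1735 with tet-Myc but not tet-YAP and 164 with tet-YAP but not tet-Myc. With the 4 H3K4me3 lists cut to equal length by score, 364 regions were left only in tet-Myc/YAP, against 897 in the full lists. The part of list length in the other counts was not tested.

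The regions found in 1 genotype only differed in how often they met peaks or regions of their own genotype. TEAD lay at 66.9% of the tet-Myc/YAP members, 39.5% (34.3 to 44.8) of the tet-Myc regions, 15.8% (11.5 to 21.3) of the tet-YAP regions and 45.8% (42.8 to 48.8) of the wild-type regions. Myc lay at 54.8%, 39.2% (34.1 to 44.5), 6.51% (3.92 to 10.6) and 2.52% (1.73 to 3.67) in the same order, and H3K27ac at 68.9%, 52.7% (47.3 to 58.0), 24.7% (19.4 to 30.8) and 63.3% (60.3 to 66.2). YAP lay at 20.1% of the tet-Myc/YAP members and at 0 of the 215 regions only in tet-YAP, which allows a share of up to 1.40%. Over all tet-Myc/YAP H3K4me3 regions the shares were 75.8% for TEAD, 73.1% for Myc, 83% for H3K27ac and 39.7% for YAP. The like shares over all regions of the other genotypes were not computed. The Myc lists held 30327, 32592, 13227 and 4775 peaks in the same order. The 4 sets also differed in width, with medians of 1127, 1387, 4323 and 1690 bp. The part of width and of list length in the differences between the sets was not tested.

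**Figure D5:**
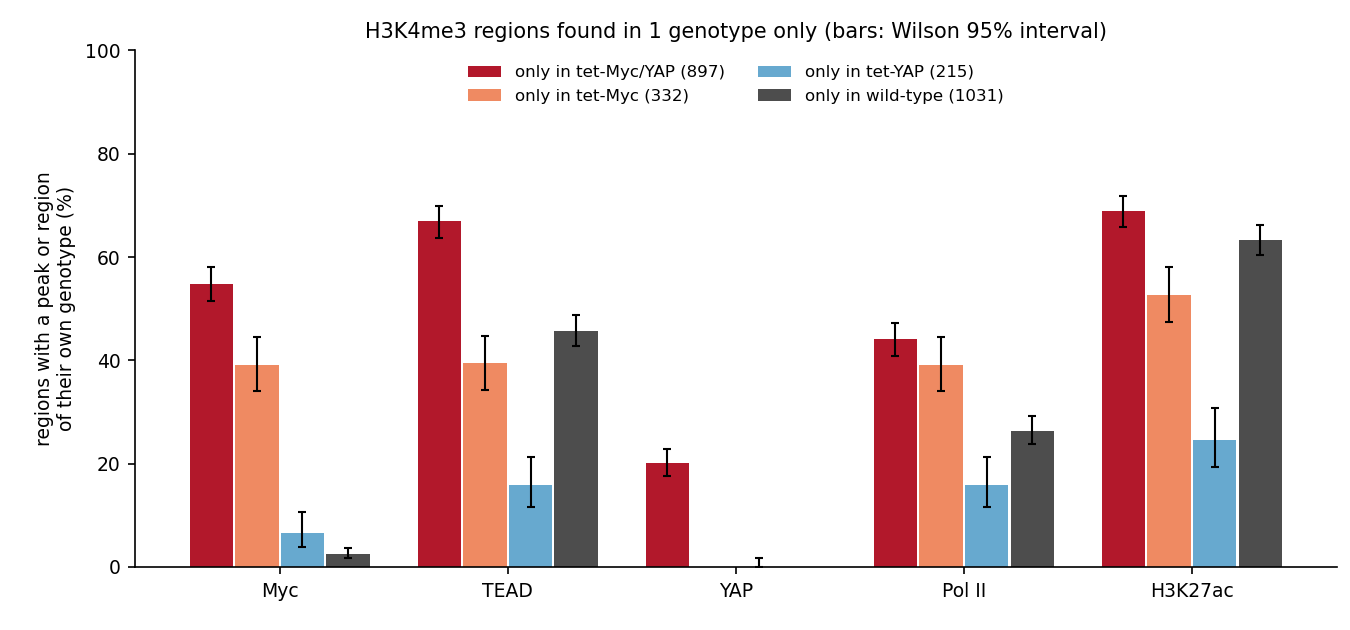
Share (%) of the H3K4me3 regions found in 1 genotype only (897 in tet-Myc/YAP, 332 in tet-Myc, 215 in tet-YAP, 1031 in wild-type) that overlapped a Myc, TEAD, YAP or RNA polymerase II peak or an H3K27ac region of their own genotype, with Wilson 95% intervals; YAP was profiled in tet-Myc/YAP and tet-YAP. TEAD lies at 66.9% of the tet-Myc/YAP members and 45.8% of the wild-type regions.

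Few members were also unique to tet-Myc/YAP in H3K27ac. Of the 920 H3K27ac regions found only in tet-Myc/YAP by the same rule, some lay at 43 members (4.79%, 3.58 to 6.39). The share was 0.71% (0.42 to 1.22) of the low-score other regions, 1.14% (0.99 to 1.30) of the other regions and 1.30% (1.15 to 1.47) of all. The members were themselves chosen by a like rule on H3K4me3, and the part of that choice in this difference was not tested.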

How the data were processed

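Of the 24 liver samples, 23 had a peak list; the sample titled as an input had none and was not analysed here. The submitters' processing notes name the mm9 build, BWA 0.6.2, SAMtools and MACS2 2.0.9; peaks were called per library. The 14 narrow lists, called at p of 1.00e-05, were deposited by the authors with pileup signal, fold enrichment as a ratio, and −log10 p and −log10 q values; the 9 broad lists were deposited with a score of unstated scale. Fixation for YAP used 2 crosslinkers and for the other antibodies formaldehyde alone.

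Overlap of at least 1 bp was computed in Python 3.11.15 (pandas 2.3.3, numpy 2.4.6), checked on simulated data, and gave the same 897 members as bedtools 2.31.1. Wilson and Newcombe 95% intervals used scipy 1.17.1. Fold enrichment and −log10 q were ranked within a list. Limits for a count of 0 used 3 counts. Figures were drawn with matplotlib 3.10.9. Gained means present in a genotype and absent in wild-type. Named members were the first 3 by width, by score and by −log10 q of the strongest tet-Myc/YAP Myc, TEAD and YAP peak, plus those beside the overlap threshold. Members and lists were chosen with earlier results of these data known. Alternatives were a −log10 q of at least 10, summits inside regions, no H3K4me3 within 1 kb, leaving tet-YAP out of the rule, lists of equal length, and a higher score minimum. Gene names and sequences were not used here, as the annotation at hand was of another build.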

Additional observations from a re-analysis of the deposited data

How the results depend on the processing

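With 1 library per group no library could be left out in turn. No paired analysis was possible because the labels carry no replicate numbers. Cutting the 4 H3K4me3 lists to equal length by score left 364 regions only in tet-Myc/YAP, of which 63.7% had Myc, 72.8% TEAD, 24.5% YAP, 56.9% RNA polymerase II and 74.7% H3K27ac of tet-Myc/YAP and 63.5% wild-type H3K4me1. Requiring a score at or above the median of the whole list left 0 members, which follows from the highest member lying at percentile 47.4. Counting only peaks with −log10 q of at least 10 gave 47.8% of members with Myc, 62.2% with TEAD, 9.37% with YAP and 38.8% with RNA polymerase II. Requiring the summit inside the region gave 63.0% for TEAD. Leaving tet-YAP out of the rule gave 964 members and requiring no H3K4me3 within 1 kb gave 896, with shares that moved by less than their intervals.

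The regions set beside the members decided the direction of most differences, and both alternatives were chosen after seeing the data. Weighting the other regions to the members' widths gave differences, members minus others in percentage points, of 0.77 for Myc, 4.82 for TEAD, -1.72 for YAP, -6.23 for RNA polymerase II and 2.12 for H3K27ac of tet-Myc/YAP, and of 5.55 for H3K4me1, -7.13 for H3K27ac, -23.1 for RNA polymerase II and -2.55 for TEAD of wild-type. Low-score other regions gave 11.6, 12.7, 0.18, 3.60 and 9.72 for the 5 tet-Myc/YAP lists in that order, and 5.03, -3.87, -13.2 and 3.38 for the 4 wild-type lists. The signs turned from negative to positive for Myc, TEAD, H3K27ac of tet-Myc/YAP and H3K4me1 under both, and for YAP, RNA polymerase II of tet-Myc/YAP and wild-type TEAD under the low-score comparison. The cause was not tested. YAP of tet-YAP stayed positive, at 1.12 points against all other regions, 2.29 with width weights and 2.03 against low-score other regions. The depth of the histone lists, which decides how many weak regions are called, is not given by the labels or methods.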

Other observations

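Members were found on all autosomes and the X chromosome. They made up 6.25% of the tet-Myc/YAP H3K4me3 regions on chromosome 15 (51 of 816) and 6.19% on chromosome 13 (54 of 872), against 2.76% on chromosome X (15 of 543) and 3.42% on chromosome 11 (50 of 1464). Chromosome 2 held the most, 83 of 1496 regions. Neighbouring members were rarely close: 8 pairs lay under 5 kb apart, with a smallest gap of 2186 bp.

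By distance to the nearest H3K4me3 region of another genotype, 160 members lay under 5 kb away, 541 at 5 to 50 kb and 196 at 50 kb or more. The nearest class had wild-type H3K27ac at 75.6% (68.4 to 81.6), the middle class at 51.8% (47.5 to 55.9) and the farthest at 35.7% (29.3 to 42.6). RNA polymerase II of tet-Myc/YAP lay at 57.5% (49.7 to 64.9), 45.5% (41.3 to 49.7) and 29.1% (23.2 to 35.8) of the same classes, and Myc at 66.2% (58.6 to 73.1), 56.0% (51.8 to 60.1) and 42.3% (35.6 to 49.4). YAP did not follow that order, at 21.9% (16.2 to 28.9), 18.9% (15.8 to 22.4) and 21.9% (16.7 to 28.2). TEAD lay at 73.1% (65.8 to 79.4), 67.8% (63.8 to 71.6) and 59.2% (52.2 to 65.8).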
